A study of Oryza sativa with 6 samples.

Results

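The 6 rice genes described here encode the enzymes that take chlorophyll apart when a leaf yellows. They are SGR (LOC_Os09g36200), NYC1 (LOC_Os01g12710), NOL (LOC_Os03g45194), NYC3 (LOC_Os06g24730), PAO (LOC_Os03g05310) and RCCR1 (LOC_Os10g25030). They were chosen by locus number, without use of their values, out of 57839 loci counted, and all 6 had enough counts to be tested. Their numbers place SGR on chromosome 9, NYC1 on chromosome 1, NOL and PAO on chromosome 3, NYC3 on chromosome 6 and RCCR1 on chromosome 10. The deposited tables carry locus numbers only, so the gene names rest on the published naming of these loci. A RefSeq gene table of another rice assembly (ASM3414082v1) pairs no locus number of this kind with a gene, but it lists 4 of the 6 symbols (SGR, NYC1, NOL and RCCR1), each on the chromosome that the number gives.

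The series compared mature leaves of the rice line osatg5-1 with those of wild-type plants (WT), 3 libraries of poly(A) RNA each. Both genotypes grew in the field in long days and were sampled at tillering, when side shoots form. The line is named for ATG5, a core protein of autophagy; its lesion, its parent variety and the number of plants per library are not stated in the labels. ATG5 itself and marker genes of leaf and other tissues were not analysed here, because no table used here pairs their names with locus numbers, so neither the line nor the tissue was checked by marker. No label says that replicates were separate plants, so the spread behind each p-value may be technical.

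Chlorophyll breakdown is an ordered pathway inside the chloroplast. NYC1 and NOL start the conversion of chlorophyll b to chlorophyll a, SGR removes the central magnesium to give pheophytin a, NYC3 (pheophytinase) cuts off the phytol tail, PAO opens the ring of the resulting pheophorbide a, and RCCR1 reduces the red product to a colourless one. Rice mutants of SGR, NYC1, NOL or NYC3 stay green for longer, and in Arabidopsis the loss of PAO or RCCR lets phototoxic intermediates build up and leaf cells die. The pathway is known for leaf senescence, and autophagy is a separate route by which chloroplast material reaches the vacuole.

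Of the 6 genes, only NYC3 differed between the genotypes under edgeR's quasi-likelihood test with TMM scaling, where its transcript fell in osatg5-1; under 4 of 9 other settings NYC1 was called higher as well. With TMM scaling none was called higher and 5 were not called at an adjusted p under 0.05. Over all 23074 tested loci 16.4% were called, 8.23% higher and 8.21% lower in osatg5-1, so 1 gene in 6 is near the background share and is no result about the set. On the authors' FPKM values, which carry another scaling, limma called 61.5% of changed loci higher, against 50.1% with edgeR. The median size of the log2 difference was 0.16 for the 6 genes and 0.20 for all tested loci. Libraries held 31296258 to 39351357 counts in osatg5-1 and 30927816 to 31677943 in WT, and a floor of 3 counts equals 0.0762 to 0.097 CPM (the count scaled to the library total).

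**Figure D1:**
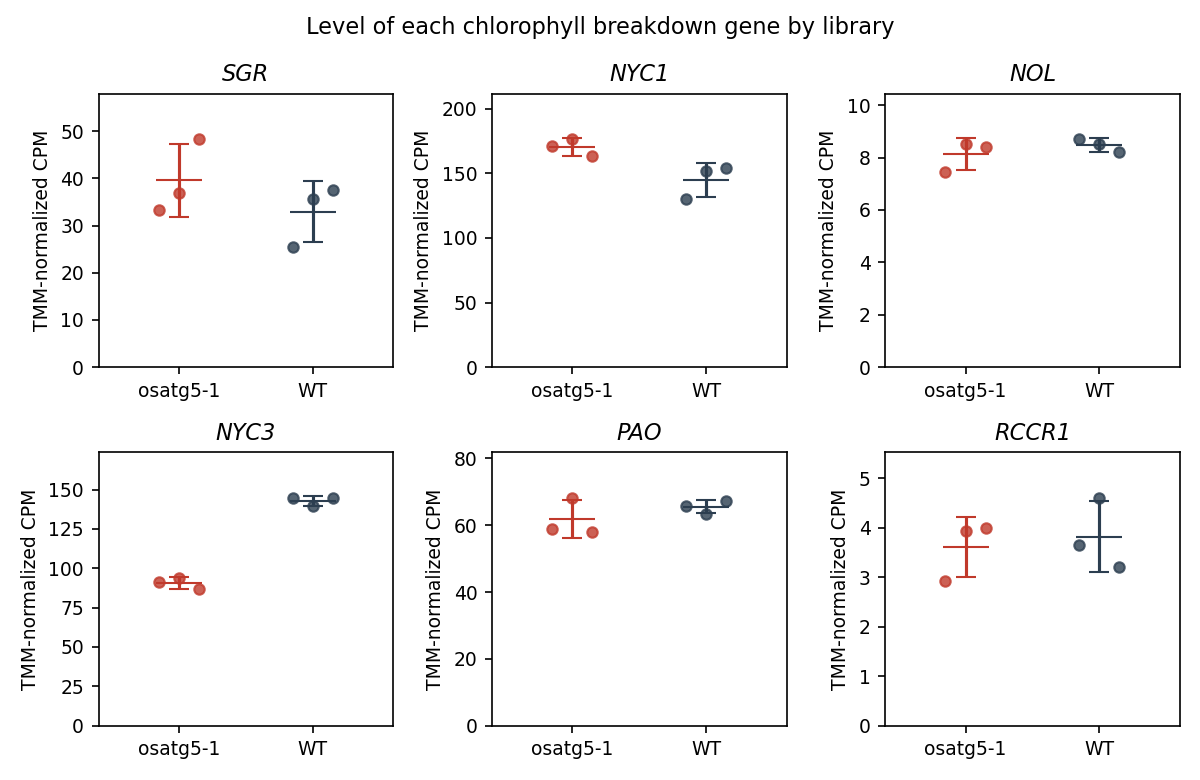
Level of each gene in CPM with TMM scaling (vertical axes, from 0) in the 3 osatg5-1 and the 3 WT libraries; points are libraries in replicate order, wide bars are means and capped lines are 1 SD. NYC3 is near 91 CPM in osatg5-1 and near 143 CPM in WT, whereas SGR, NOL, PAO and RCCR1 overlap between the genotypes.

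Chlorophyll b reductase, the entry point for the antenna pigment chlorophyll b, is encoded by NYC1 and NOL. NYC1 was at 171, 176 and 163 CPM in osatg5-1 and at 130, 151 and 154 CPM in WT, with TMM scaling as for all CPM levels of genes here. All 3 osatg5-1 libraries lay above all 3 WT libraries, as was the case, in either direction, for 35.4% of all tested loci. NYC1 averaged 170.1 ± 6.77 CPM in osatg5-1 and 145 ± 13.3 CPM in WT (SD, n = 3 each), a log2 fold change of 0.23 ± 0.08 (SE), or 1.17-fold. This did not pass the test over all loci (edgeR adjusted p = 0.0737), although the 95% interval, which is not adjusted for the number of loci, ran from 1.04-fold to 1.32-fold. The call turned on the setting. NYC1 was called higher with scaling to library size (adjusted p = 0.0371, edgeR), with DESeq2 (adjusted p = 0.0302) and with limma on the FPKM values (adjusted p = 0.0389 with 1 added and 0.0392 with 0.1 added before the log).

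NOL, the second reductase, was far less abundant. It was at 7.45, 8.53 and 8.42 CPM in osatg5-1 and at 8.70, 8.52 and 8.19 CPM in WT, and the genotypes overlapped. Its log2 fold change was -0.06 ± 0.12 (SE; edgeR adjusted p = 0.788), with a 95% interval from 0.803-fold to 1.149-fold. NOL rested on 237 to 335 counts per library in osatg5-1 and 248 to 274 in WT. Differences inside that interval remain compatible with these libraries. The interval is not adjusted for the number of loci and is not a limit of detection.

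SGR, the magnesium-removing step whose loss gives the stay-green trait, varied widely between libraries of the same genotype and did not pass the test. It was at 33.4, 36.9 and 48.3 CPM in osatg5-1 and at 25.5, 35.6 and 37.6 CPM in WT. Replicate 3 of osatg5-1 was high and replicate 1 of WT was low, and the rest lay between 33.4 and 37.6 CPM. In both genotypes the level rose with the replicate number, though no label links libraries of the same number. The means were 39.5 ± 7.79 CPM in osatg5-1 and 32.9 ± 6.47 CPM in WT (SD, n = 3 each), a log2 fold change of 0.27 ± 0.16 (SE; edgeR adjusted p = 0.306) with a 95% interval from 0.937-fold to 1.54-fold. That value was 0.11 without osatg5-1 replicate 3 (adjusted p = 0.724) and 0.11 without WT replicate 1 (adjusted p = 0.671), both by edgeR. With a block by replicate number it was 0.27 ± 0.09 (SE; edgeR adjusted p = 0.078). The SD of SGR relative to its mean was 19.7% in both genotypes, against 2.69% in osatg5-1 and 3.16% in WT that counting alone would give if counts were independent.

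NYC3, the pheophytinase that frees the phytol tail, was at 91.4, 94.0 and 86.5 CPM in osatg5-1 and at 145, 139 and 145 CPM in WT. The highest osatg5-1 library lay well below the lowest WT library. NYC3 averaged 90.6 ± 3.78 CPM in osatg5-1 and 143 ± 3.18 CPM in WT (SD, n = 3 each), 0.634 times the WT level, with a 95% interval from 0.575 to 0.70. The log2 fold change was -0.66 ± 0.06 (SE; edgeR adjusted p = 0.000126), lower in 3 of 3 mutant libraries, and it ranked 1501 from the lowest among the 23074 tested loci. The exact permutation test on the 6 log2 CPM values gave p = 0.1 (two-sided), the smallest that 3 against 3 libraries allow. In leaf RNA taken as a whole, fewer cells that express a gene and less RNA per cell cannot be told apart. NYC3 was also among the least variable of these transcripts. The SD of its log2 CPM within a genotype was 0.05, at percentile 4.71 of the loci with at least 1 CPM, whose median was 0.14.

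**Figure D2:**
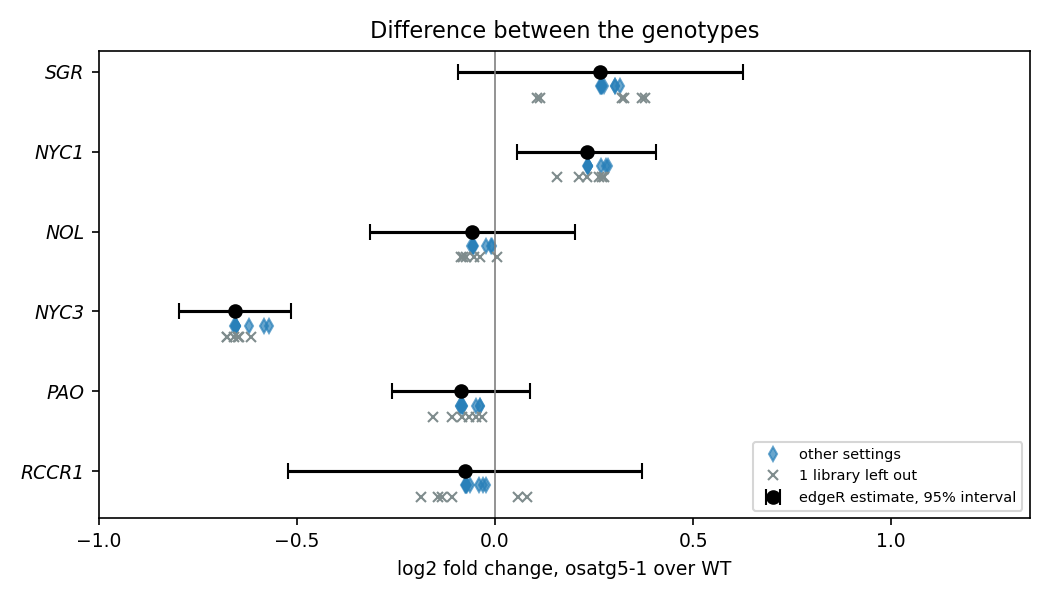
Log2 fold change of osatg5-1 over WT for each gene (horizontal axis); black points are edgeR estimates with 95% intervals, blue diamonds are 9 other settings and grey crosses are the fits with 1 library left out. NYC3 stays between -0.68 and -0.57 under the settings and omissions drawn, while NOL and RCCR1 cross 0 when 1 library is left out.

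PAO, the ring-opening oxygenase that acts right after NYC3, was at 59.0, 68.3 and 58.0 CPM in osatg5-1 and at 65.8, 63.5 and 67.3 CPM in WT. Replicate 2 of osatg5-1 was above each WT library and the other two were below them. The log2 fold change was -0.09 ± 0.08 (SE; edgeR adjusted p = 0.512), with a 95% interval from 0.836-fold to 1.06-fold. It was -0.16 without osatg5-1 replicate 2 (adjusted p = 0.215) and -0.03 without osatg5-1 replicate 3 (adjusted p = 0.869), both by edgeR. The interval with all 6 libraries lies above the 0.634-fold level of NYC3.

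RCCR1, which makes the colourless catabolite, was the least abundant of the 6 and the least well measured. It was at 2.92, 3.94 and 3.996 CPM in osatg5-1 and at 3.65, 4.61 and 3.20 CPM in WT, from 93 to 159 counts per library in osatg5-1 and 97 to 144 in WT. The genotypes overlapped throughout. Its log2 fold change was -0.08 ± 0.20 (SE; edgeR adjusted p = 0.84), and the 95% interval ran from 0.696-fold to 1.29-fold, so its lower limit was close to the upper limit of 0.70 for NYC3.

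Levels can be set side by side between genes only per length, for which the authors' FPKM values serve (fragments scaled to locus length and library depth). On that scale NYC1 led in both genotypes, at 71.1 ± 2.96 FPKM in osatg5-1 and 58.5 ± 5.21 FPKM in WT (SD, n = 3 each). NYC3 came next, at 30.9 ± 1.34 FPKM in osatg5-1 and 46.4 ± 2.76 FPKM in WT. PAO followed at 24.6 ± 2.28 FPKM in osatg5-1 and 25.2 ± 0.599 FPKM in WT, and SGR at 23.1 ± 4.52 FPKM in osatg5-1 and 18.6 ± 3.61 FPKM in WT. NOL and RCCR1 closed the order well below the others. NOL was at 3.90 ± 0.283 FPKM in osatg5-1 and 3.92 ± 0.135 FPKM in WT, and RCCR1 at 2.62 ± 0.44 FPKM in osatg5-1 and 2.68 ± 0.519 FPKM in WT.

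The order of the 6 genes was the same in both genotypes. Neighbours in it did not overlap between libraries of a genotype, except PAO and SGR in osatg5-1, where PAO ran from 23.0 to 27.2 FPKM and SGR from 19.5 to 28.2 FPKM. Against all tested loci, NYC1 stood at percentile 95.2 of mean FPKM in osatg5-1 and 94.2 in WT, NYC3 at 87.3 in osatg5-1 and 92.5 in WT, and RCCR1 at 34.5 in osatg5-1 and 36.0 in WT. The FPKM values of the 6 genes added up to 156 ± 5.07 in osatg5-1 and 155 ± 7.88 in WT (SD, n = 3 each). The sums in TMM CPM, which is not scaled to length, were 365, 388 and 368 in osatg5-1 and 378, 403 and 415 in WT. Within the FPKM sum NYC1 held 45.5% in osatg5-1 and 37.6% in WT, and NYC3 held 19.8% in osatg5-1 and 30.0% in WT.

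**Figure D3:**
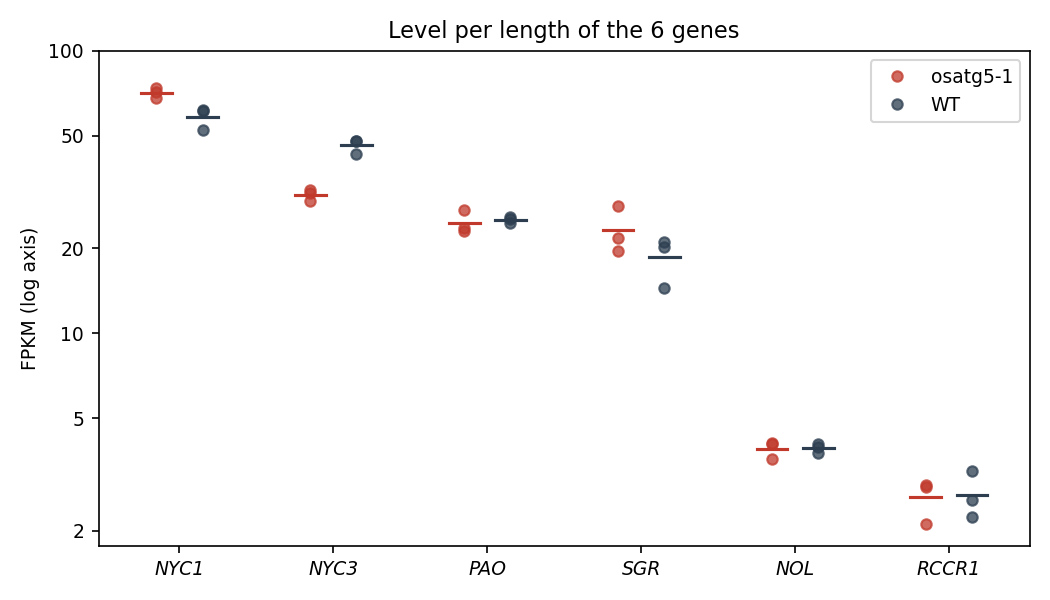
FPKM of each gene on a log axis, with genes ordered by their WT mean; points are the 3 libraries of osatg5-1 (left of each pair) and of WT (right), and bars are means. NYC1 leads, NOL and RCCR1 lie below 5 FPKM, and NYC3 is nearer to PAO in osatg5-1 than in WT.

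The length that the counts and FPKM values imply was steady for 5 of the genes but not for NYC3. After division by each library's own median, the highest implied length was 1.00 to 1.01 times the lowest for the other five, as for most loci (median 1.00 over 15220 loci with at least 100 counts in each library). For NYC3 it was 1.08 times, a ratio that 2.97% of those loci exceeded. WT replicate 2 stood apart, with 3175 bases implied for NYC3 against 2945 to 3005 in the other 5 libraries. Its FPKM was 43.2 beside 48.0 and 48.1 in WT replicates 1 and 3, and its CPM was 139 beside 145 in both of those. The CPM levels of NYC3 are not divided by this length, and why the implied length differed was not tested.

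Ratios between genes within a library do not depend on how libraries were scaled. NYC1 to NOL, the ratio of the reductases, was 20.01, 18.03 and 16.8 in osatg5-1 and 13.0, 15.5 and 16.3 in WT, in FPKM. The genotypes did not overlap, and the ratio was 1.23 times as high in osatg5-1 by the mean of logs (two-sided exact permutation p = 0.1, the smallest possible with 3 against 3 libraries). Such a design cannot reach 0.05. The separation was narrow, with 16.8 in osatg5-1 replicate 3 and 16.3 in WT replicate 3, where NOL had 335 and 248 counts. If counts were independent, counting alone would give NOL an SD of 5.87% of its mean in osatg5-1 and 6.17% in WT.

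Of all 15 ratios among the 6 genes, 6 did not overlap between the genotypes, and 4 of these hold NYC3. Single loci did not overlap at 35.4% of those tested, and the 15 ratios share genes, so nothing is read from the count of 6. NYC1 to NYC3 was 2.29, 2.30 and 2.30 in osatg5-1 and 1.09, 1.42 and 1.28 in WT, or 1.83 times as high in osatg5-1. In raw counts it was 1.87, 1.88 and 1.88 in osatg5-1 and 0.895, 1.09 and 1.06 in WT, so NYC3 held more counts than NYC1 in 1 WT library and fewer in the other five libraries. SGR to NYC3 was 1.87 times and NOL to NYC3 1.49 times as high in osatg5-1, and NYC3 to PAO was 0.685 times as high. The sixth was NYC1 to PAO, 1.25 times as high. After adjustment over the 15 ratios none passed (exact permutation tests, two-sided, adjusted p = 0.25 for these 6).

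**Figure D4:**
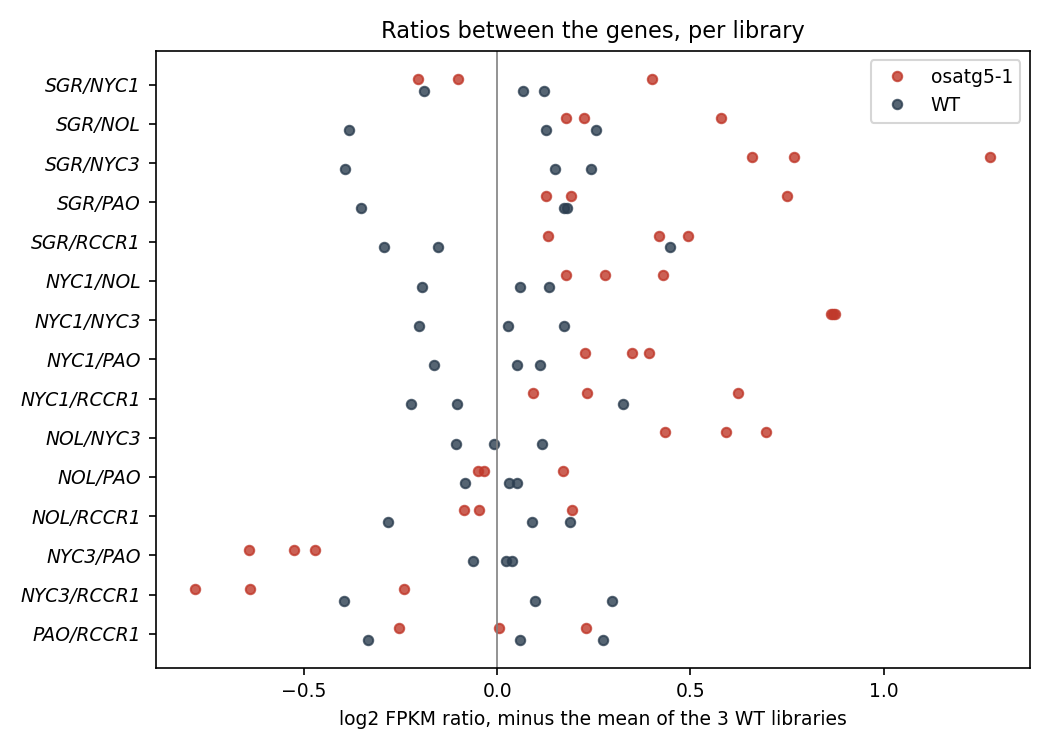
Log2 ratio of FPKM between each pair of the 6 genes, per library, minus the mean of the 3 WT libraries (horizontal axis); each row shows osatg5-1 libraries above WT libraries. The osatg5-1 points for NYC1/NYC3 lie together near 0.87, and those for PAO/RCCR1 and NOL/PAO are spread among the WT points.

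Profiles over the libraries were compared with that of SGR. Loci were ranked by the root mean square difference of their log2 CPM from SGR over the 6 libraries, after each locus's own mean was removed, among 19725 loci. NYC1 ranked 1259, NOL 6695, RCCR1 8470, PAO 9748 and NYC3 17732. The nearest were LOC_Os11g07450 on chromosome 11, with a difference of 0.03, and LOC_Os07g41460 on chromosome 7, with 0.05. LOC_Os11g07450 was at 3.14, 3.53 and 4.35 CPM in osatg5-1 and at 2.41, 3.27 and 3.53 CPM in WT, and like SGR it was not called (edgeR adjusted p = 0.441). With 6 libraries and so many loci, close profiles arise readily and say nothing of shared control.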

How the data were processed

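The authors deposited raw counts per locus for the 6 libraries, and FPKM values for the same loci, per the file headers. Per the submitters' processing notes, HISAT2 and the build IRGSP-1.0 were used. How reads were counted, with which strand setting and annotation, is not given in the sources used here. Loci that overlap or nearly match may therefore share reads. Counts of 2 outnumbered counts of 1 by 2.58 to 2.83 times, so counts are not independent molecules. Libraries were grouped by title. Loci passing filterByExpr were tested with edgeR 4.0.16 (R 4.3.3), quasi-likelihood test, TMM scaling, genotype only, with Benjamini-Hochberg adjustment over 23074 loci. The standard error is the log2 fold change over the square root of F. The code was tested on simulated data, in which the planted changes were larger than any seen for the 6 genes. Alternatives were RLE and library-size scaling, 2 filters, DESeq2 1.42.0, limma-voom and limma on log2 FPKM (limma 3.58.1), a replicate block and omission of each library. Every pair of libraries differed beyond the error of independent counts (chi-square per degree of freedom at least 10.45). As counts here are not independent, that error understates the error of counting. Each library was counted as 1 sample, although such differences do not show that libraries came from separate plants. The 6 genes were listed by locus number and not picked by their values. Earlier results of these data were known when the genes, ratios and tests were chosen. Named loci are the 6 genes and the 2 closest to SGR in profile. Other chlorophyll, senescence and tissue genes, and sequences, were not analysed here.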

Additional observations from a re-analysis of the deposited data

How the results depend on the processing

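The fall of NYC3 kept its direction and its call under each of the 9 other settings, at -0.66 to -0.57 on the log2 scale, and with each library left out, at -0.68 to -0.62. The number of called genes was 1 with each library left out, and it was 2 with library-size scaling, DESeq2 and limma on log2(FPKM + 1) or log2(FPKM + 0.1), where NYC1 was called too, at 0.27, 0.23, 0.28 and 0.28. Library-size scaling and FPKM also moved the median log2 difference of all tested loci from 0.00162 to between 0.0381 and 0.0511, and DESeq2 had 0.0047; the cause of these calls was not tested. With 1 library left out, NYC1 ran from 0.16 to 0.28, SGR from 0.11 to 0.38 and PAO from -0.16 to -0.03, none called. With 1 library left out NOL ran from -0.0863 to 0.00563, above 0 without osatg5-1 replicate 1, and RCCR1 from -0.188 to 0.0802, above 0 without osatg5-1 replicate 1 (0.0579) or WT replicate 2 (0.0802). The ratio of NYC1 to NOL ran from 0.20 to 0.36 (log2). Calls over all loci numbered 3638 to 4014, and 2567 to 3500 with 1 library left out, against 3793. With the replicate block 3765 loci were called, and of the 6 genes NYC3 alone (log2 fold change -0.66); SGR then had an adjusted p of 0.078 (edgeR), against 0.306 without it. Deviations from the genotype means, over loci with at least 1 CPM, correlated at 0.06, -0.02 and 0.11 between libraries of the same number. These libraries were therefore not treated as pairs, although SGR rose with the number in both genotypes. RCCR1 and NOL had the fewest counts. If counts were independent, counting alone would give SDs of 8.88% and 5.87% of the mean in osatg5-1 and 9.27% and 6.17% in WT. In the same order, the observed SDs were 16.7% and 7.33% in osatg5-1 and 18.8% and 3.05% in WT.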

Other observations

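The fall of NYC3 was not part of a run of called loci. None of the 12 nearest tested loci by number, 1 on each side of each gene, was called (edgeR adjusted p under 0.05). For NYC3 they were at log2 fold changes of 0.17 (edgeR adjusted p = 0.435), 19 numbers away, and -0.50 (edgeR adjusted p = 0.602), 120 numbers away. Of the 20 tested loci around NYC3 on chromosome 6, as many on each side by number, 2 were called higher and 1 lower. Around all 6 genes, 15 of 120 loci were called higher and 7 lower, or 18.3% in either direction, against 16.4% of all tested loci. SGR had the most called loci around it, with 3 higher and 3 lower of 20, and RCCR1 the fewest, with 1 higher. NYC3 was tested locus 908 of 1776 on its chromosome.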
